A study of Saccharomyces cerevisiae with 18 samples.

Results

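Chromosome III of Saccharomyces cerevisiae was described through its genes, taken as every row of the count table whose systematic name begins with YCL (left arm) or YCR (right arm). The rule found 187 genes of 6746 rows, 73 on the left arm and 114 on the right arm. The chromosome was picked because its genes had been seen to be high in the mutant in these same libraries, so the differences between the genotypes below are a description. How many genes the fit called on them is given beside the share over all genes, and for some alternative fits without that share. These counts are not used as a test. The stress responses within a genotype did not choose the chromosome, and those were tested.

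Poly(A) RNA was sequenced from a wild-type strain (WT) and from a strain whose histone H2A carries the change S121A, alanine in place of a serine near the C-terminal end, with 3 libraries in each of 6 groups. Per the labels, both strains are FY406 cells of mating type MATa with (hta2-htb2)::TRP1 and (hta1-htb1)::LEU2, so neither keeps its chromosomal H2A and H2B gene pairs. Both also carry the alleles lys2-128delta, ura3-52, leu2delta1, trp1delta63 and his3delta200. In WT a plasmid carries (HTA1-HTB1)wt, and in the mutant it carries (HTA1-HTB1)S121A. The plasmid marker is written HIS3, HIS4 or HIS5 in the labels for replicates 1, 2 and 3, although HIS4 is itself a gene of chromosome III. Cells in log phase on YPD at 30 °C were taken without stress, after 15 min in 0.4 M NaCl, or after 10 min at 39 °C (heat). The libraries held 39.6 to 53.03 M (mega) counts, where 3 counts correspond to 0.0566 to 0.0758 CPM (counts of a gene per 1 M counts of the library). The labels do not say whether the 3 libraries of a group came from separate cultures, so p-values measure only the spread between these libraries, which may be technical.

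Chromosome III is a small chromosome best known for carrying the mating-type loci: the expressed MAT locus and the silent copies HML and HMR that donate to it during mating-type switching. Besides these it holds an ordinary mixture of housekeeping genes, among them PGK1, GLK1, HIS4, LEU2 and TUP1. Several of its genes make factors for assembling ribosomes, a group of genes that budding yeast shuts off together on stress, while others such as HSP30 are switched on by heat.

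The centromere CEN3 is the point from which positions along the chromosome were measured, and its sequence is shown for that reason. It lies at chrIII:114385-114501 on the + strand of the reference R64, and the capitals mark the annotated elements CDEI and CDEIII.
CEN3: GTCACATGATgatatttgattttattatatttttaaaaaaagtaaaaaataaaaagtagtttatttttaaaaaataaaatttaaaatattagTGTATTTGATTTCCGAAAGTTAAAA

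Among the ribosome assembly factors of the chromosome, PWP2, SPB1 and RSA4 fell most under stress, and the 250 bases that end 100 bases before their start codons are shown from R64 to show what they share. The window of PWP2 lies at chrIII:223329-223578 on the - strand, where it overlaps YIH1. The window of SPB1 lies at chrIII:31099-31348 on the + strand. That of RSA4 lies at chrIII:242453-242702 on the - strand, where it overlaps SSK22. Capitals mark the core AAAATTT of the RRPE element or its reverse complement, and the core GATGAG of the PAC element, the pair of motifs known from promoters of ribosome assembly genes.
PWP2: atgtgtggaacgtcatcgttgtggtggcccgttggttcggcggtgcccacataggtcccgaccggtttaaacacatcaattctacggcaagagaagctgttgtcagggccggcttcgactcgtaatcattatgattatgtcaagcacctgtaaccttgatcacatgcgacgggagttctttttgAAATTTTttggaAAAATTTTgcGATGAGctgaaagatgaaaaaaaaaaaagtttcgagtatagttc
SPB1: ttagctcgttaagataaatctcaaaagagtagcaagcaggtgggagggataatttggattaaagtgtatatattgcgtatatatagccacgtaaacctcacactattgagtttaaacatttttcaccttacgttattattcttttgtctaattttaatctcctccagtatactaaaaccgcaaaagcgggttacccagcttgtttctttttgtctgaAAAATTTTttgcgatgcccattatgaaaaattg
RSA4: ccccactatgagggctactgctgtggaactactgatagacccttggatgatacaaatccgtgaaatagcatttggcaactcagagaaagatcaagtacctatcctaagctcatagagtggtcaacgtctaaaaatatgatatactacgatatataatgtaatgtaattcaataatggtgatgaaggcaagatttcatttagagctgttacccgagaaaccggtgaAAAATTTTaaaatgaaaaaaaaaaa
Searched on both strands, AAAATTT was found in 5 of the 6 windows of chromosome III assembly factors (KRR1, PWP2, RRP7, RSA4 and SPB1), against 21.7% of 6001 windows of the same length genome-wide. A run of AAAATTTT counts as a match on each strand. The letters GATGAG were found in the windows of BUD23 and PWP2, against 15.9% of all windows. A match describes the letters only. The heat shock element core TTCNNGAA was found in 0 of these 6 windows (11.3% of all), and the stress response element AGGGG in 1 of them, BUD23 (20.1% of all).

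Genes of chromosome III took a larger part of the counts in every S121A library than in any WT library of the same condition. Without stress they held 3.23%, 3.36% and 3.16% of all counts in the 3 WT libraries and 4.53%, 4.48% and 4.43% in the 3 S121A libraries. Under NaCl the shares were 3.26%, 3.55% and 3.84% in WT and 5.34%, 5.34% and 5.35% in S121A, and under heat they were 6.2%, 5.58% and 5.73% and 8.28%, 8.49% and 8.78%. The ranges of the genotypes did not overlap in any condition. PGK1 alone, the phosphoglycerate kinase of glycolysis, made a large part of each share, and the shares without it were 1.78% in WT and 2.66% in S121A without stress, 2.15% and 3.14% under NaCl, and 3.23% and 4.75% under heat (means, n = 3).

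To set one chromosome beside another without a few strong genes deciding the value, each gene's log2(CPM + 0.5) was taken relative to its mean over the 18 libraries, and the median over the 137 chromosome III genes with at least 8 CPM on average was compared with that of 4960 genes on the other nuclear chromosomes. CTO1 was just inside this limit at 8.18 CPM and HTL1 just outside at 7.61 CPM. On this scale, with positive values for higher levels, chromosome III stood at -0.23 ± 0.04 in unstressed WT and 0.32 ± 0.02 in unstressed S121A (SD, n = 3). It stood at -0.34 ± 0.03 and 0.30 ± 0.02 under NaCl, and at -0.31 ± 0.02 and 0.33 ± 0.03 under heat. All 9 WT libraries were thus below 0 and all 9 S121A libraries above it.

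**Figure D1:**
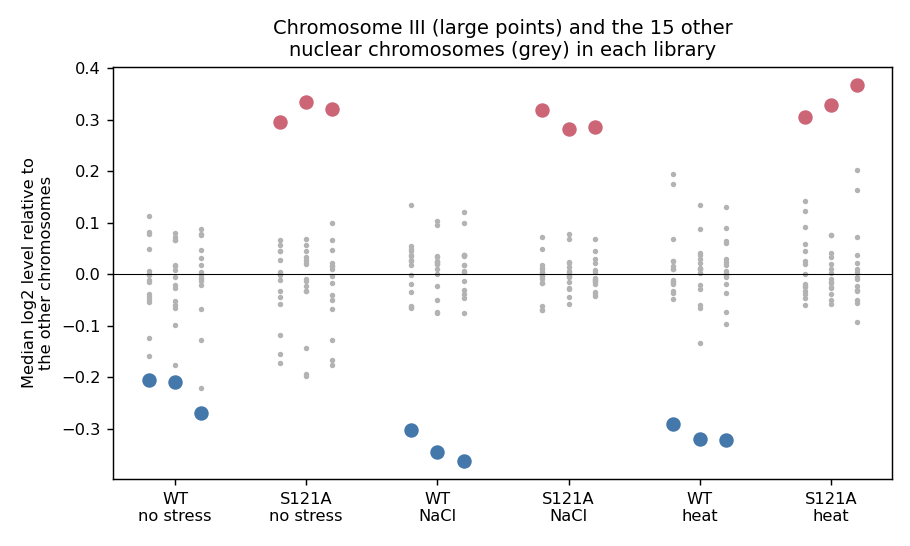
Median log2 level of each nuclear chromosome relative to the others (y axis) in each of the 18 libraries, grouped by genotype and condition. Large points are chromosome III and grey points the 15 other chromosomes; chromosome III lies between -0.36 and -0.21 in the WT libraries and between 0.28 and 0.37 in the S121A libraries.

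The genotype difference of the chromosome was 0.55 on the log2 scale without stress, 0.63 under NaCl and 0.64 under heat, which is 1.46-fold, 1.55-fold and 1.56-fold. The SE of these differences was between 0.021 and 0.024. Among the 15 other nuclear chromosomes the difference ran from -0.10 (chromosome I) to 0.11 (chromosome VIII) without stress, from -0.09 (VI) to 0.13 (VIII) under NaCl, and from -0.10 (IV) to 0.17 (VIII) under heat. Only RNA was measured, and in bulk RNA a level shared by all cells cannot be told apart from a higher level in a fraction of them.

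The stresses themselves moved the chromosome little. Its relative level changed by -0.11 (NaCl) and -0.08 (heat) in WT and by -0.02 and 0.02 in S121A, where the other chromosomes ranged from -0.13 to 0.28, -0.15 to 0.33, -0.08 to 0.20 and -0.08 to 0.30 in these 4 responses. The responses of a genotype share its unstressed libraries.

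The genotype difference was next taken gene by gene. Of the 187 genes, 180 passed the filter on low counts. An edgeR adjusted p under 0.05 and a higher level in S121A was found for 151 of them without stress (9.05% of all 6395 genes tested were called this way), for 155 under NaCl (14.6%) and for 145 under heat (19.5%). A lower level was called for 0, 0 and 1 of them, against 14.1%, 9.19% and 14.2% of all genes. All 3 S121A libraries were above all 3 WT libraries for 162, 163 and 151 genes (20%, 21.9% and 20.8% of all genes) and below them for 1, 0 and 1 (29.9%, 16.8% and 14.8%). Since the chromosome was picked for this difference, nothing is read from these counts.

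Of the 137 genes over the CPM limit, 134 had a fitted log2 difference above 0 without stress, 136 under NaCl and 134 under heat, and 132 did so in all 3 conditions. The median log2 difference was 0.55 without stress (interquartile range 0.39 to 0.74), 0.61 under NaCl (0.46 to 0.84) and 0.67 under heat (0.47 to 0.87), beside medians of -0.06, -0.03 and -0.03 on the other chromosomes. All of the 43 tested genes under the limit were also above 0 without stress and under NaCl, and 40 of them under heat. Their medians of 0.90, 0.86 and 0.81 are given without weight, because a gene that passed the filter through its S121A libraries had to differ.

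The higher level was found on both arms and in every stretch of the chromosome. The 50 left-arm genes had medians of 0.57, 0.63 and 0.67 in the order no stress, NaCl and heat, and the 87 right-arm genes 0.55, 0.59 and 0.67. In position order, 6 blocks of 22 or 23 genes from CHA1 at the left end to AAD3 at the right end had medians between 0.45 and 0.64 without stress, between 0.57 and 0.69 under NaCl and between 0.47 and 0.77 under heat. The lowest of the heat values, 0.47, came from the rightmost block, SRB8 to AAD3, and the highest, 0.77, from the neighbouring block, YCR051W to PTC6. Without stress the same 2 blocks stood in the opposite order, at 0.64 and 0.45.

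**Figure D2:**
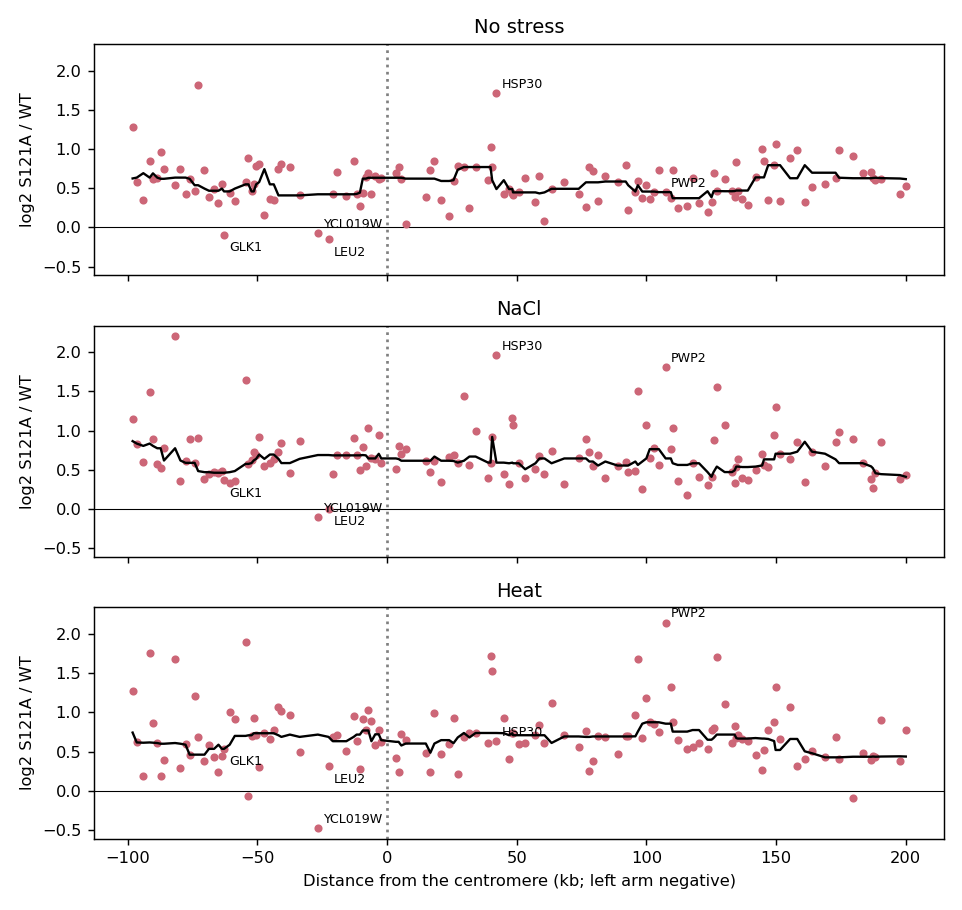
Fitted log2 difference S121A over WT (y axis) of 135 chromosome III genes with a position in R64, against distance from the centromere in kb (x axis, left arm negative), in the 3 conditions. Points are genes, the black line is the running median of 11 genes, and the line stays above 0 over the whole chromosome in each condition.

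The most strongly expressed genes had the smallest median without stress. Split by mean CPM into classes of 46, 46 and 45 genes, the lowest, middle and highest classes had medians of 0.65, 0.54 and 0.39 without stress, of 0.63, 0.64 and 0.55 under NaCl, and of 0.59, 0.71 and 0.66 under heat. The 3 genotype differences share no libraries, and over the 137 genes they correlated with r = 0.42 (rho = 0.41) between no stress and NaCl, r = 0.11 (rho = 0.04) between no stress and heat, and r = 0.60 (rho = 0.43) between NaCl and heat, given as a description across genes of the same libraries.

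The 5 genes that were not higher in all 3 conditions were LEU2, YCL019W, GLK1, GRX1 and HMRA1. LEU2, the enzyme of leucine synthesis, is deleted at its own place per the labels (leu2delta1) and put in at the histone locus in both strains. It was at 198, 192 and 181 CPM in the 3 unstressed WT libraries and 180.2, 163 and 169.8 CPM in the S121A libraries, which puts the mutant below WT with no overlap. Its fitted log2 difference was -0.15 ± 0.079 without stress, 0.01 ± 0.08 under NaCl and 0.31 ± 0.079 under heat (± SE).

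YCL019W encodes the protein of a Ty2 retrotransposon, a family with near-identical copies on other chromosomes, so its counts are uncertain. It had differences of -0.07 ± 0.13, -0.10 ± 0.13 and -0.48 ± 0.13, and it was the 1 gene under heat with all S121A libraries below all WT libraries. GLK1, a glucokinase, was at 877, 789 and 813 CPM in unstressed WT and 841, 751 and 727 CPM in unstressed S121A, where the libraries overlapped. Under heat GLK1 stood at 10518, 8162 and 8359 CPM in WT and 12749, 12078 and 14360.1 CPM in S121A, with no overlap.

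Among genes with at least 10 CPM in the higher group, the other end was led without stress by HSP30, a plasma membrane protein of the stress response, whose unstressed values were 17.9, 17.6 and 16.4 CPM in WT and 58.7, 51.7 and 59.4 CPM in S121A. The lowest S121A library was well above the highest WT library, and the fitted difference was 1.71 ± 0.10. CHA1, a deaminase that breaks down serine and threonine, followed with 13.4, 13.8 and 13.03 CPM in WT and 32.6, 32.0 and 33.2 CPM in S121A, a difference of 1.28 ± 0.082 that stayed near this size under NaCl (1.15 ± 0.084) and heat (1.27 ± 0.081). YCR087C-A (1.07 ± 0.10), PET18 (1.03 ± 0.10), AHC2 (1.00 ± 0.089), OCA4 (0.99 ± 0.13) and YCR090C (0.98 ± 0.16) made up the rest of the upper end without stress, with HTL1 of the RSC chromatin remodeller at 1.15 ± 0.30.

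Under stress, ribosome synthesis genes came to the upper end. Among genes with at least 10 CPM in the higher group, under NaCl HSP30 (1.96 ± 0.10) was followed by PWP2 (1.81 ± 0.12), BUD23 (1.51 ± 0.15), KRR1 (1.496 ± 0.10) and YCR087C-A (1.302 ± 0.11), then by YCR024C-B (1.16 ± 0.51), CHA1 and PMP1 (1.08 ± 0.28). Under heat, within the same limit, KRR1 led at 1.76 ± 0.11, followed by the neighbours PET18 and MAK31 at 1.72 ± 0.11 and 1.52 ± 0.078. YIH1 (1.32 ± 0.10), CHA1, YCL049C (1.21 ± 0.080), YCR051W (1.19 ± 0.14) and RPS14A (1.12 ± 0.093) came next. Genes with lower CPM than that limit included SPB1 (2.21 ± 0.14), GFD2 (1.65 ± 0.15) and RSA4 (1.55 ± 0.13) under NaCl, and PWP2 (2.14 ± 0.14), GFD2 (1.89 ± 0.18), RSA4 (1.70 ± 0.15), BUD23 (1.69 ± 0.17) and SPB1 (1.68 ± 0.14) under heat.

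The leftmost genes, remnants of a Ty5 retrotransposon near the telomere, were low everywhere but very unequal between the strains. YCL074W was at 0.322, 0.113 and 0.117 CPM in unstressed WT and 2.86, 2.37 and 2.76 CPM in unstressed S121A, and at 0.119, 0.0681 and 0.138 CPM and 1.62, 1.497 and 1.54 CPM under heat. No WT library reached the lowest S121A library of its condition, and the fitted log2 differences were 3.83 ± 0.27, 3.32 ± 0.27 and 3.82 ± 0.33. Its neighbour YCL075W was listed at 0 in all 3 heated WT libraries and at 0.235, 0.629 and 0.297 CPM in heated S121A. Both were chosen after their values were seen, and their WT values lie near the limit that 3 counts set.

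**Figure D3:**
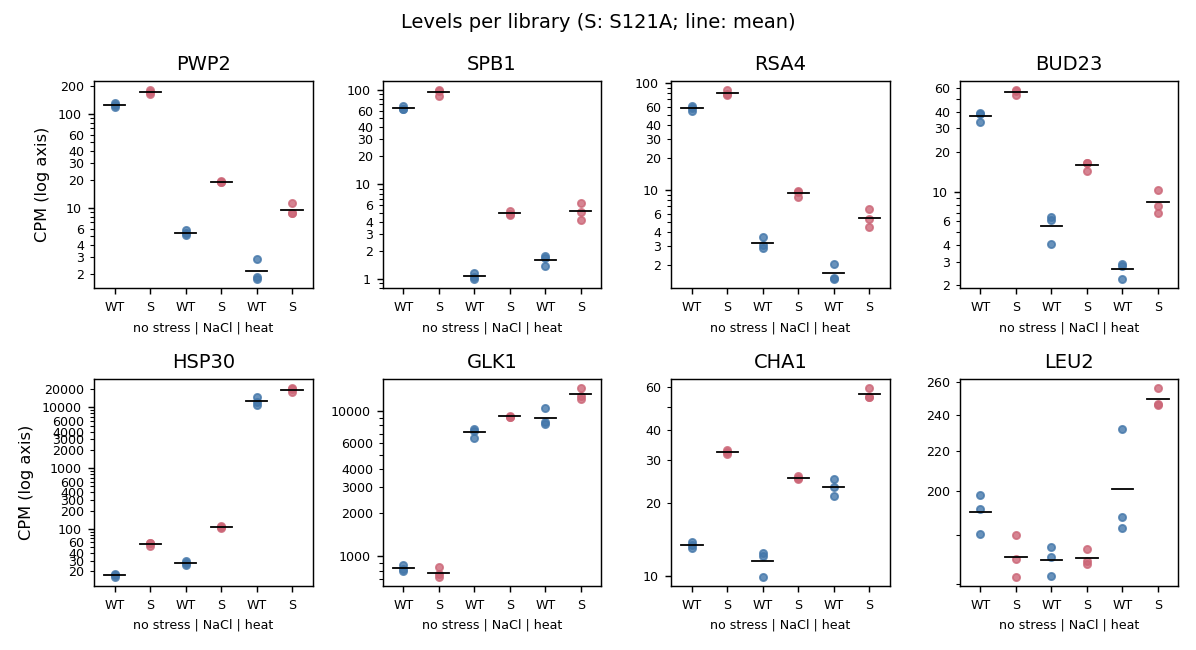
Levels in CPM (y axis, log scale) of 8 chromosome III genes in each library, with WT in blue, S121A (S) in red and a line at the mean of 3. The assembly factors PWP2, SPB1, RSA4 and BUD23 drop under both stresses and less far in S121A, HSP30 jumps under heat, and LEU2 shows no S121A excess without stress or under NaCl.

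Genes with a paralog on another chromosome gave a comparison within the same libraries, since paralogs make related proteins. For 17 pairs with both genes over the CPM limit, the chromosome III member had a median log2 difference of 0.42 without stress, 0.62 under NaCl and 0.60 under heat, and its paralog -0.20, -0.07 and 0.02. The member was the higher of the pair in 17, 17 and 16 pairs. The exception under heat was PHO87, a low-affinity phosphate transporter, at 0.69 ± 0.075 against 1.39 for PHO90.

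GLK1, at -0.10 without stress, stood against -0.72 for its paralog EMI2, so it too was the higher of its pair. CIT2, the peroxisomal citrate synthase, stood at 0.05 against -0.20 for CIT1. RPS14A, a protein of the small ribosomal subunit, stood at 0.49 against -0.48 for RPS14B, and reads of such close copies may have been split between them. The members were picked for their high values in S121A, so the order within pairs is a description.

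**Figure D4:**
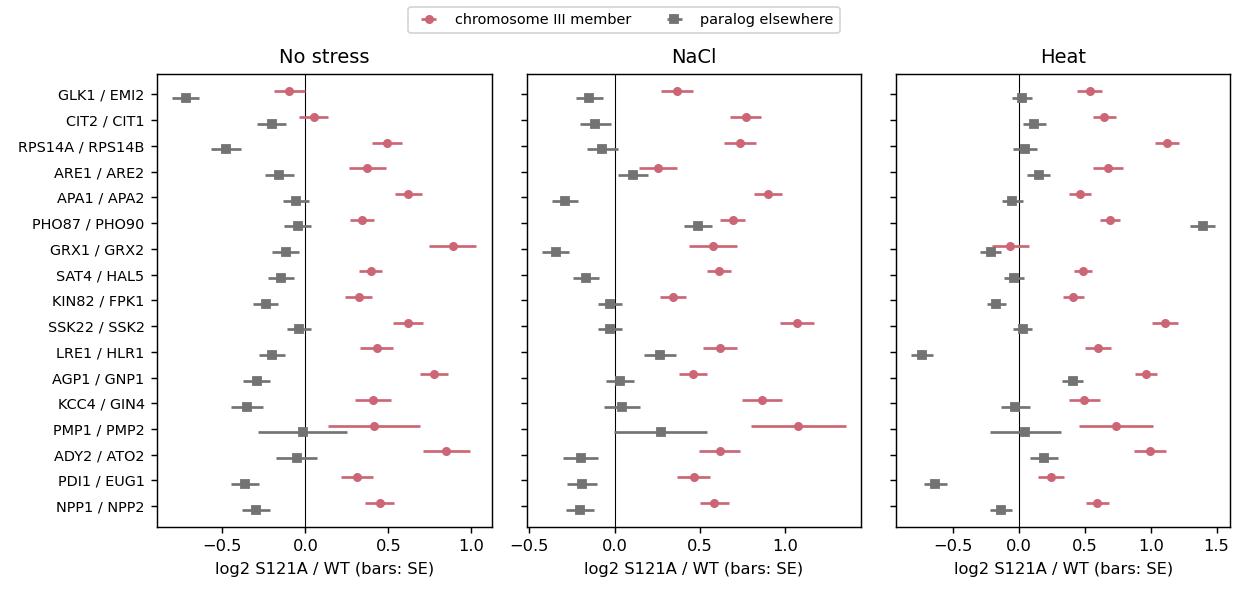
Fitted log2 difference S121A over WT (x axis, bars SE) of 17 chromosome III genes (circles) and their paralogs on other chromosomes (squares), by condition. The circle lies to the right of its square in every pair without stress and under NaCl, and in 16 of 17 pairs under heat, where PHO87 and PHO90 are reversed.

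Chromosome III genes rose and fell under both stresses in both strains. In WT, NaCl raised 62 of the 180 genes and lowered 66 by edgeR (adjusted p under 0.05), where 36.3% and 37.2% of all genes were called. Heat in WT raised 74 and lowered 72 (40.6% and 39.3% of all). In S121A, NaCl raised 61 and lowered 56 (35.8% and 35.3%), and heat raised 76 and lowered 69 (40.3% and 39.7%). These shares of the 180 genes, between 31.1% and 42.2%, were close to those over all genes.

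The split between higher and lower calls depended on how libraries were scaled. With library totals alone in place of TMM factors it became 56 higher and 93 lower for heat in WT, 45 and 86 for NaCl in S121A, and 36 and 102 for heat in S121A. That scaling moved the median log2 response of all genes by -0.13 (WT NaCl), -0.39 (WT heat), -0.29 (S121A NaCl) and -0.61 (S121A heat), and the genotype difference without stress by 0.17. Shares called over all genes were not counted with that scaling, so these counts are not read as a trait of the chromosome.

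HSP30 responded more to heat than any other of the 6395 genes tested, in both strains. In WT it went from a mean of 17.3 ± 0.795 CPM (SD, n = 3) to 14843, 11054 and 12186 CPM in the heated libraries, and in S121A from 56.6 ± 4.28 CPM to 17814, 20429.5 and 20829 CPM. The heat response was 9.52 ± 0.14 on the log2 scale in WT (edgeR adjusted p = 2.16e-21) and 8.44 ± 0.14 in S121A (edgeR adjusted p = 1.04e-20). Heated S121A libraries were still above heated WT libraries, and the genotype difference was down to 0.63 ± 0.10.

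YCL048W-A, a small gene of no named function, went from 2.18, 2.58 and 2.20 CPM in unstressed WT to 60.6, 68.6 and 76.1 CPM under NaCl and 120.0, 99.99 and 103 CPM under heat. These were responses of 4.88 ± 0.13 (edgeR adjusted p = 6.05e-18) and 5.54 ± 0.13 (edgeR adjusted p = 5.95e-19). In S121A it began at 7.83, 7.95 and 8.82 CPM and reached 123, 138 and 124 CPM under NaCl and 154, 167 and 198 CPM under heat. It was thus higher in S121A in every condition, and by the largest factor without stress (1.82 ± 0.13).

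GLK1 rose with both stresses, on the log2 scale by 3.11 ± 0.10 under NaCl (edgeR adjusted p = 3.03e-16) and 3.45 ± 0.11 under heat (edgeR adjusted p = 4.18e-17) in WT, and by 3.57 and 4.08 in S121A. The overlapping row YCL042W rose beside it by 2.26 and 2.93 in WT, and reads of overlapping genes cannot be told apart without the counting rule. The protein kinase gene KIN82 rose by 2.28 ± 0.084 and 2.96 ± 0.086 in WT and by 2.30 and 3.05 in S121A. Other genes at the upper end were the glutaredoxin gene GRX1 (WT 1.38 under NaCl, 2.86 under heat), TVS1 (1.63 under NaCl), POF1 (1.60 under NaCl), ATG15, a lipase of the vacuole (1.48 under NaCl), the acetate transporter gene ADY2 (2.66 under heat) and HBN1 (2.64 under heat). All of these passed in edgeR with non-overlapping libraries. In S121A the upper end also held SYP1 (1.65 under NaCl, 1.28 in WT) and APA1, a phosphorylase of diadenosine tetraphosphate (2.33 under heat, 2.49 in WT). The lower end there held HTL1 (-2.85 under heat, -1.95 in WT). Each of these moved the same way in WT, without being among the largest changes named for WT.

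Ribosome synthesis genes made the lower end. Of 8 on the chromosome, 8 fell under NaCl and 7 under heat in WT, and 7 and 8 fell in S121A. The exceptions were the exosome subunit gene RRP43 (0.05 ± 0.087 under heat in WT) and RPS14A (-0.001 ± 0.091 under NaCl in S121A). Over all genes tested, 37.2% fell under NaCl and 39.3% under heat in WT, and 35.3% and 39.7% in S121A. PWP2, a scaffold protein of the small subunit processome, was at 124, 129.8 and 119.5 CPM in unstressed WT, at 5.79, 5.36 and 5.12 CPM under NaCl and at 1.76, 1.82 and 2.87 CPM under heat. In S121A it was at 178, 162 and 171 CPM without stress, at 19.5, 18.8 and 18.9 CPM under NaCl and at 8.74, 8.74 and 11.2 CPM under heat. The S121A libraries lay above the WT libraries in each condition, and further above them after stress. The responses of PWP2 were -4.52 ± 0.12 (edgeR adjusted p = 1e-17) and -5.84 ± 0.14 (edgeR adjusted p = 5.71e-19) in WT, and -3.16 ± 0.11 (edgeR adjusted p = 9.09e-16) and -4.15 ± 0.12 (edgeR adjusted p = 1.96e-17) in S121A.

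SPB1, a methyltransferase of large subunit assembly, behaved alike, at 63.2, 63.3 and 67.2 CPM in unstressed WT, 1.06, 1.16 and 1.00 CPM under NaCl and 1.37, 1.68 and 1.77 CPM under heat. In S121A it was at 97.3, 98.5 and 85.4 CPM without stress, at 4.77, 4.90 and 5.18 CPM under NaCl and at 4.16, 5.09 and 6.34 CPM under heat. Again no S121A library overlapped a WT library of its condition. RSA4, which acts late in large subunit assembly, fell by 4.19 under NaCl and 5.11 under heat in WT on the log2 scale, and by 3.10 and 3.87 in S121A. KRR1, BUD23 and the less responsive RRP7, all of the small subunit, fell in WT by 2.27, 2.74 and 0.97 under NaCl and by 3.54, 3.83 and 0.84 under heat. In S121A their responses were -1.62, -1.83 and -0.85 under NaCl and -2.62, -2.74 and -1.34 under heat. RRP7 thus fell further in S121A under heat, as did RRP43 (-0.46 against 0.05 in WT). For the heat response difference, edgeR called 6 of the 8 ribosome synthesis genes higher in S121A and 2 lower (15.5% and 7.08% of all genes). GFD2 (-4.17 and -5.14 in WT) and RBP95 (-3.07 and -3.38) fell too, as did the kinase gene KCC4 under NaCl (-2.17) and ELO2, a fatty acid elongase, under heat (-3.26 ± 0.11).

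The 6 assembly factors of chromosome III (KRR1, PWP2, RRP7, RSA4, BUD23 and SPB1) were set beside 56 assembly genes of the other chromosomes. Those 56 were found by the symbol prefixes UTP, NOP, NOC, NOG, RRP, RPF and NSA, a list chosen after values were seen. The sets follow different rules. Among the 6 only RRP7 carries such a prefix, while RRP43, which carries one, was left out along with RPS14A. The genotype difference had a median of 0.57 on chromosome III and 0.07 elsewhere without stress, 1.53 and 0.82 under NaCl, and 1.69 and 1.02 under heat. Under stress the medians were above 0 on chromosome III and elsewhere, and chromosome III had the higher one in each condition. With RRP43 and RPS14A added, the chromosome III medians were 0.57, 1.503 and 1.68 in the same order, still above those elsewhere. The responses of the 6 and the 56 were near each other. For NaCl in WT the medians were -3.47 on chromosome III and -3.58 elsewhere, and for heat in WT -4.47 and -4.73. In S121A they were -2.46 and -2.74 for NaCl, and -3.31 and -3.69 for heat. Over all 8 ribosome synthesis genes of the chromosome, RRP43 and RPS14A included, the falls were smaller. Their medians for NaCl and heat were -2.51 and -3.69 in WT, and -1.72 and -2.68 in S121A.

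**Figure D5:**
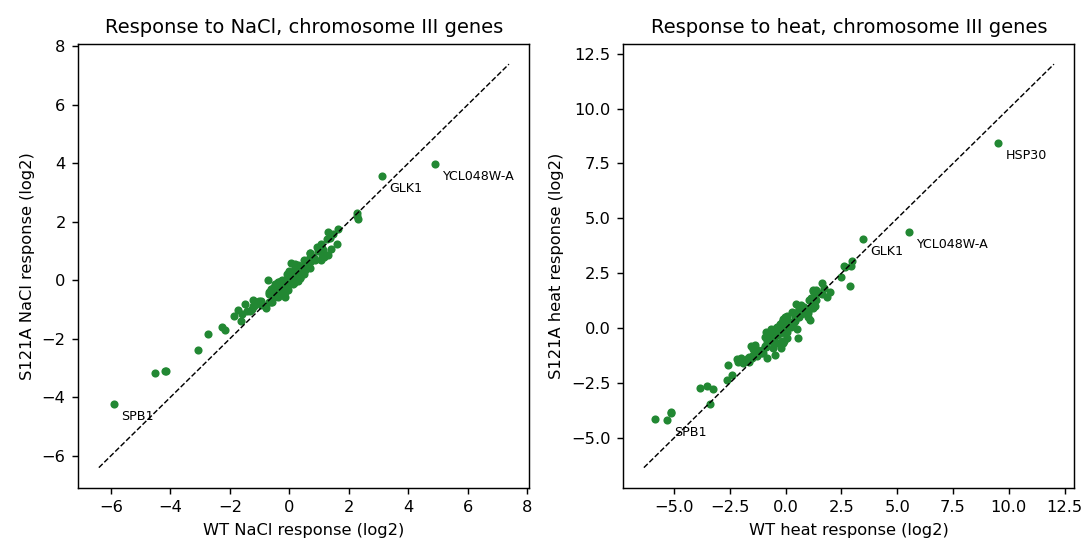
Log2 response in S121A (y axis) against that in WT (x axis) for the 137 chromosome III genes with at least 8 CPM, to NaCl (left) and heat (right); the dashed line marks equal responses. Among genes with strong falls, SPB1, PWP2, RSA4 and GFD2 lie above the line in both panels. RBP95 lies above it under NaCl and slightly below it under heat. YCL048W-A lies below the line in both, and HSP30 lies below it under heat.

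The difference between the responses of the strains is also the change of the genotype difference with stress. For NaCl 14 of 180 genes were called higher in S121A and 2 lower by edgeR (6.82% and 1.53% of all genes), and for heat 38 and 20 (15.5% and 7.08%). With library totals alone these became 6 and 9 for NaCl and 21 and 27 for heat. That scaling moved the median response difference of all genes by -0.16 for NaCl and -0.22 for heat. Shares called over all genes were not counted with it. Among called genes with at least 10 CPM in the highest of the 4 groups, the largest positive values were those of SPB1, PWP2, RSA4 and GFD2, with 1.67, 1.36, 1.09 and 1.07 under NaCl and 1.14, 1.69, 1.24 and 1.31 under heat. Within the same limit the largest negative values were those of YCL048W-A (-0.91 under NaCl and -1.14 under heat) and HSP30 (-1.08 under heat), followed by HMRA1 (-1.002) and GRX1 (-0.95) under heat. Below 10 CPM, YCR025C (1.36) was called higher under heat, and HMLALPHA2 (-1.14), MATALPHA2 (-0.96) and HMRA2 (-0.91) were called lower. With HMRA1 that makes all 4 tested mating-type rows, of which HMLALPHA2, MATALPHA2 and HMRA2 share sequence. The HMRA1 and HMRA2 calls were both lost without S121A no stress replicate 2 (adjusted p = 0.0601 and 0.0569 in edgeR), WT heat replicate 2 (0.0755 and 0.116) or WT heat replicate 3 (0.0616 and 0.0785). The HMRA1 call was also lost without WT no stress replicate 1, and the HMRA2 call without S121A heat replicate 2, S121A no stress replicate 1 or WT no stress replicate 2 or 3, or in a fit of only the groups compared. The median median over the 137 genes was 0.08 for NaCl and 0.15 for heat, beside 0.04 and 0.05 over all genes tested.

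The NaCl counts were small and moved with single libraries: 8 were called higher without S121A NaCl replicate 2 or 3, S121A no stress replicate 2 or 3 or WT no stress replicate 1, 9 without WT no stress replicate 3, and up to 17 without others. For heat, the 20 lower calls went to 10 without S121A no stress replicate 2 or WT heat replicate 2, to 11 without WT heat replicate 3 and to 12 without WT no stress replicate 1 or 2. Shares called over all genes were not counted in these fits.

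The mating-type loci came next. The labels give MATa cells, and the 7 a-specific marker genes summed to 2853 to 2936 CPM in unstressed WT and 2211 to 2389 CPM in unstressed S121A, while the 4 alpha-specific markers summed to 94.2 to 99.0 and 89.7 to 101.1 CPM. Across all 18 libraries the alpha pheromone genes MFALPHA1 and MFALPHA2 stayed between 0.481 and 2.48 CPM. The other alpha-specific markers were higher, STE3 at 3.78 to 17.6 CPM and SAG1 at 33.7 to 92.0 CPM. The range of SAG1 overlapped those of the a-specific markers AGA2 (15.5 to 104 CPM) and ASG7 (14.3 to 53.8 CPM). The alpha1 activator genes HMLALPHA1 and MATALPHA1 were near 0 in all libraries and were not tested, with at most 0.0828 CPM and 0.0646 CPM. The copies are identical over 528 bases, so their reads cannot be assigned to a locus.

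The a1 gene at HMR, HMRA1, was at 8.33, 11.5 and 9.45 CPM in unstressed WT and 15.3, 20.8 and 18.9 CPM in unstressed S121A, a difference of 0.91 ± 0.20. Since the reference carries the alpha form of MAT, reads from an a1 gene at MAT would be expected to align at HMR. Under heat WT replicate 1 stood at 8.04 CPM and replicates 2 and 3 at 18.2 and 16.3 CPM, while S121A held 13.7, 13.1 and 13.2 CPM, and the groups overlapped. The rows HMLALPHA2 and MATALPHA2 are identical over 633 bases and had differences of 0.90 ± 0.19 and 0.82 ± 0.17 without stress, and HMRA2, whose 360 bases all occur in MATALPHA2, had 0.93 ± 0.21. In heated WT, replicate 1 was again the lowest of the 3 for each of these. Of the 6 mating-type rows, 4 were tested, and their median difference was 0.90 without stress, 0.78 under NaCl and -0.11 under heat.

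All 4 mating and pheromone genes were higher in S121A in each of the 3 conditions. FUS1, a membrane protein of cell fusion, was at 24.3, 22.3 and 24.4 CPM in unstressed WT and 42.1, 39.6 and 37.3 CPM in unstressed S121A. FIG2, an adhesin of mating cells, was at 82.7, 79.6 and 78.8 and 153, 142 and 149.7 CPM. Neither gene had overlapping libraries. The differences were 0.74 ± 0.082 for FUS1, 0.88 ± 0.081 for FIG2, 0.75 ± 0.093 for the transcription factor gene KAR4 and 0.79 ± 0.14 for STE50, the adaptor of the kinase Ste11. Heat lowered 3 of the 4 in WT, FUS1 most (-1.62, edgeR adjusted p = 6.12e-13), and raised STE50 (0.42, edgeR adjusted p = 0.00898). The same 3 fell and STE50 rose under heat in S121A. Of all genes tested, heat lowered 39.3% in WT and 39.7% in S121A.

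The 12 metabolic genes had a median difference of 0.31 without stress, 0.72 under NaCl and 0.66 under heat. PGK1 was at 14101, 13614 and 12742 CPM in unstressed WT and 16296, 14475 and 14036 CPM in unstressed S121A. That is an overlap of the strains, with a difference of 0.15 ± 0.11. Under NaCl and heat the PGK1 differences were 0.67 ± 0.11 and 0.60 ± 0.11. CIT2 and HIS4, an enzyme of histidine synthesis, were also near equal without stress (0.05 ± 0.088 and 0.16 ± 0.073) and higher in S121A under heat (0.65 ± 0.088 and 0.73 ± 0.074). The branched-chain synthesis subunit gene ILV6 and the threonine synthase gene THR4 differed by 0.44 ± 0.10 and 0.46 ± 0.083 without stress. In WT 2 of the 12 rose and 8 fell under NaCl, and 6 rose and 4 fell under heat. Over all genes tested in WT, 36.3% rose and 37.2% fell under NaCl, and 40.6% rose and 39.3% fell under heat. The same shares belong beside the counts of the transport, folding, chromatin, cell division and mitochondrial genes below. Nothing is read from counts in groups this small.

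For the 7 transport genes the medians were 0.42, 0.59 and 0.71 in the same order. AGP1, an amino acid permease, was at 370.2, 353 and 345 CPM in unstressed WT and 633, 574 and 623 CPM in unstressed S121A, with no overlap and a difference of 0.78 ± 0.085. ADY2, although low without stress, had one of 0.85 ± 0.14. PMP1, a small regulator of the proton pump, differed by 0.41 ± 0.28 without stress, with WT libraries spread from 300.9 to 575 CPM. Under NaCl 3 transport genes rose and 3 fell in WT, and under heat 3 rose and 4 fell.

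The 9 folding and stress genes had medians of 0.62, 0.64 and 0.77. GRX1 stood at -0.07 ± 0.14 under heat; its heated WT libraries stood at 237, 382 and 373 CPM, with replicate 1 the lowest, and its heated S121A libraries at 327, 277 and 344 CPM. PDI1, the protein disulfide isomerase of the endoplasmic reticulum, stood at 0.24 ± 0.10 under heat. SSK22, a kinase of the osmosensing pathway, differed by 0.62 ± 0.092, 1.07 ± 0.10 and 1.11 ± 0.10. In WT 5 of the 9 rose and 2 fell under NaCl, and 6 rose and 3 fell under heat.

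Medians of 0.40, 0.54 and 0.50 were found for 10 chromatin and transcription genes. TUP1, the corepressor of many stress and mating genes, was at 311, 284 and 272 CPM in unstressed WT and 387, 354 and 359.8 CPM in unstressed S121A, with no overlap. Its differences were 0.34 ± 0.083, 0.54 ± 0.084 and 0.77 ± 0.084 in the 3 conditions. TAF2 of TFIID and SNT1 of the Set3 complex differed by 0.58 ± 0.077 and 0.43 ± 0.066 without stress, and HCM1, a forkhead transcription factor, by 0.28 ± 0.093. In WT 1 of the 10 rose and 4 fell under NaCl, and 3 rose and 3 fell under heat.

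The 10 genes for chromosomes and cell division had medians of 0.61, 0.64 and 0.61. CDC10, a septin, was at 88.3, 88.2 and 87.6 CPM in unstressed WT and 145, 148 and 133 CPM in unstressed S121A, a difference of 0.69 ± 0.15 without overlap. CSM1 of the monopolin complex and RAD18, a ubiquitin ligase of DNA repair, differed by 0.79 ± 0.12 and 0.63 ± 0.085. MRC1, the replication checkpoint mediator, was the lowest of them without stress (0.35 ± 0.15) and under heat (0.18 ± 0.16). In WT 1 of these genes rose and 6 fell under NaCl, and 2 rose and 6 fell under heat.

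For the 6 mitochondrial genes the medians were 0.57, 0.58 and 0.74. The mitochondrial ribosomal protein genes MRPL32, IMG1 and IMG2 differed by 0.78 ± 0.13, 0.46 ± 0.12 and 0.69 ± 0.11 without stress, the cysteine desulfurase gene NFS1 by 0.42 ± 0.072 and RIM1, which binds mitochondrial DNA, by 0.65 ± 0.11. MRPL32 was the lowest of the 6 under heat (0.24 ± 0.13). In WT 1 rose and 4 fell under NaCl and 1 rose and 2 fell under heat, and MGR1, a subunit of the i-AAA protease, rose under both (0.55 and 1.61). The 8 ribosome synthesis genes had medians of 0.57, 1.503 and 1.68.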

How the data were processed

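The values are raw counts per gene, 1 deposited column per library, which the authors made with TopHat2 2.0.1 and featureCounts 1.4.6-p5 on the builds sacCer3 and R64, per the submitters' processing notes. DESeq2 1.10.1 is named there too. Per the labels, RNA from a hot-phenol extraction went through poly(A) selection and a TruSeq stranded kit. The treatment of strand and of reads with several matches was not given in the sources used here, so copies and overlapping genes are uncertain. Of the 187 chromosome III rows, 169 matched the R64 reference table, and 15 of these overlapped another of them. The 18 rows without a match had no position, so their overlaps were not checked. Sequences are from the RefSeq R64 genome. All columns were mapped to a sample, with 0 left over, and features here are rows that name a gene.

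Counts were filtered with filterByExpr (6395 genes kept) and scaled by TMM. A robust quasi-likelihood model in edgeR 4.0.16 under R 4.3.3 was fitted to all 18 libraries with 1 mean per group, and adjusted p are Benjamini-Hochberg over all genes tested, two-sided, called under 0.05. SEs of log2 differences were back-calculated from that model, as the size of the difference over the square root of the F statistic of its test. For genes with counts near 0 they can be far off. CPM are counts per 1 M after TMM scaling. These SEs and the SDs over libraries include the spread between libraries. The limit of detection, taken as 3 counts, covers counting error only. The code was tested on simulated data.

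The members, gene groups, paralog pairs and tests were chosen with earlier results of these data known. Named are, for each stress response, the 8 largest changes each way with adjusted p under 0.05, non-overlapping libraries and 10 CPM in the higher group, for each genotype difference the 8 largest each way with 10 CPM, for each response difference the 4 largest each way with adjusted p under 0.05 and 10 CPM in the highest of its 4 groups, the 72 genes of the 9 role groups and 18 paralog pairs.

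The labels number replicates 1 to 3 in each group without saying what a number marks. For the genotype comparison under NaCl the same-numbered libraries deviated together (r from 0.207 to 0.432), and for the other comparisons they did not all do so. The main fit has no replicate block in any comparison. SEs and calls for the genotype difference under NaCl therefore leave this possible pairing out, and the block was fitted only as an alternative. No 2 libraries of a group agreed within sampling noise. Alternatives were DESeq2 1.42.0, library totals, TMM factors without chromosome III, no filter, fewer groups, a replicate block and leaving out each library.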

Additional observations from a re-analysis of the deposited data

Results flagged for a closer look

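Responses that differed between the strains were picked out by the edgeR test of the response difference, S121A response minus WT response on the log2 scale, which is made of the same libraries as the genotype differences.

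Under NaCl the difference was 1.67 for SPB1 (adjusted p = 2.92e-06), 1.36 for PWP2 (7.15e-06), 1.09 for RSA4 (0.000142) and 1.07 for GFD2 (0.000899), all of which fell further in WT. It was -0.91 for YCL048W-A (0.000883) and -0.36 for POF1 (0.0308), which rose further in WT. POF1 lost its call in 9 leave-one-out fits (adjusted p from 0.0509 to 0.105).

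Under heat the difference was 1.69 for PWP2 (adjusted p = 7.98e-07), 1.31 for GFD2 (0.00022), 1.24 for RSA4 (5.27e-05) and 1.14 for SPB1 (6.83e-05), and again each fell further in WT. It was -1.14 for YCL048W-A (4.08e-05), -1.08 for HSP30 (1.71e-05) and -0.95 for GRX1 (0.00205), which rose further in WT. HMRA1 had -1.002 (0.0191), a call that was lost without S121A no stress replicate 2, WT heat replicate 2 or 3 or WT no stress replicate 1 (adjusted p from 0.0581 to 0.0755).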

How the results depend on the processing

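The relative level of chromosome III kept its direction in every alternative run. Without stress the genotype difference of 0.55 became 0.59 with a floor of 1 CPM, 0.58 with a floor of 50 CPM and 0.61 with the mean in place of the median. Leaving out 1 library gave 0.522 to 0.570 without stress, 0.616 to 0.655 under NaCl and 0.612 to 0.652 under heat.

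Leaving out 1 library gave 1 to 3 genes called lower in S121A under heat (3 without WT heat replicate 1), 8 to 17 called higher and 1 to 4 called lower in the NaCl response difference, and 10 to 23 called lower and 29 to 49 called higher in the heat response difference. In the NaCl response difference 1 gene was called lower without S121A NaCl replicate 1, 2 or 3, S121A no stress replicate 1 or 2, WT NaCl replicate 1 or 3 or WT no stress replicate 2 or 3, and 4 came without WT heat replicate 1. With library totals alone 86 genes were called lower for NaCl and 36 higher for heat in S121A, 6 higher and 9 lower in the NaCl response difference and 21 higher in the heat response difference. For the lower NaCl response difference, DESeq2 gave 4 genes and a fit of only the groups compared 10. Shares called over all genes were not counted in these alternative fits, so the counts describe the processing only. The cause was not tested.

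With the replicate number as a block, the genotype difference was called higher for 150, 157 and 146 genes in the order no stress, NaCl and heat. These counts are a description, since the chromosome was picked for this difference, and shares over all genes were not counted in that fit. The block moved no count by more than 1.5 times. Of 78 stress responses and response differences named for their large size, 2 lost a call in some alternative, POF1 and HMRA1. Calls were less steady over the wider set of 398 named values, which includes the role groups. Over 24 alternatives 9182 of its results kept the same call, 170 lost a call, 54 gained one and 2 changed sign where either fit had a call. Genotype differences are among these, so the numbers are a description. With library totals alone the heat responses of MATALPHA2 and YCR025C in S121A turned from 0.003 and 0.52 to -0.61 and -0.099. Genes below 3 counts in a library, 0.0566 to 0.0758 CPM, cannot be told from 0.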
